A study of Mus musculus with 6 samples.

Results

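The 7 genes described here belong to the MHC class II pathway: H2-Aa, H2-Ab1, H2-Eb1, H2-DMa, H2-DMb1, Cd74 and Ciita. They were taken by name from the 22281 features of the deposited count table, all 7 are in it, and their counts were summed per cluster and library. The cells came from adult mouse hearts profiled by Drop-seq, a droplet method that tags the 3' ends of transcripts with a cell barcode and a unique molecular identifier (UMI). Control mice carried Myh6-MCM (Myh6-MerCreMer), a tamoxifen-activated Cre recombinase driven by a cardiomyocyte promoter. YAP5SA mice carried in addition 1 copy of the Yap5SA transgene, a form of YAP that the Lats kinases cannot phosphorylate, and all mice of both groups received tamoxifen. The Cre is active in cardiomyocytes, so the immune cells described below are not the cells in which the transgene was switched on. Each genotype had 2 libraries of dissociated tissue (Control tissue 2 and 3, YAP5SA tissue a and b) and 1 library of cardiomyocytes enriched by settling, and the labels do not say how many hearts each library holds. The p-values below therefore measure the spread between libraries, which may in part be technical.

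MHC class II molecules present peptides to CD4+ T cells. H2-Aa and H2-Ab1 encode the alpha and beta chains of the I-A molecule, and H2-Eb1 encodes the beta chain of the I-E molecule. Cd74 is the invariant chain, which guides newly made class II molecules to endosomes and blocks their groove on the way, and H2-DMa and H2-DMb1 encode the H2-M heterodimer that exchanges the remnant of Cd74 for antigenic peptide. Ciita is the coactivator that turns on these genes, and it acts through factors bound to an X box and a Y box in their promoters. In the heart, dendritic cells, monocyte-derived macrophages and a part of the resident macrophages are known to carry class II molecules.

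The X and Y boxes are printed for 3 members because these genes are described together below. RefSeq promoters (GRCm38.p6, 250 bases before to 50 bases after the start) were found for 4 of the 7 members, H2-Aa, H2-Eb1, H2-DMa and H2-DMb1, all on chromosome 17. Both strands were searched for CTNGNAACT, letters of an X box, and TGATTGG, letters of a Y box; the X box letters were chosen after these promoters had been read, so their presence is a description. Each stretch runs from 20 bases before the X box match to 20 bases after the Y box match, 5′ to 3′ on the gene's strand, and capitals mark the 2 matches.
H2-Aa, chr17:34287847-34287927, minus strand: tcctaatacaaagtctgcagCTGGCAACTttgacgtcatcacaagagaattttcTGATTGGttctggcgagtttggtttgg
H2-Eb1, chr17:34305753-34305832, plus strand: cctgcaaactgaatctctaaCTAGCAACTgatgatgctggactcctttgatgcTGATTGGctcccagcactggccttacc
H2-DMb1, chr17:34153074-34153154, plus strand: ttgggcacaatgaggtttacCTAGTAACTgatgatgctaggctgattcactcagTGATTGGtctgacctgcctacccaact
The matches do not overlap, and 25 bases in H2-Aa and H2-DMb1 and 24 bases in H2-Eb1 lie between them. Among all 32851 promoters of the same length, 7.82% held the Y box letters, 4.1% the X box letters and 0.35% both. Neither set of letters is in the windows of H2-DMa.

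Levels are given as CPM, the UMIs of a gene per 1000000 UMIs of the same cells in that library. The macrophages are the authors' clusters Mac1 to Mac4, and the authors' cluster Mo is called by that name. Control enriched held 0 cells of either kind, so values are given for 2 Control and 3 YAP5SA libraries (Mac3 has 1 Control library). The fits hold preparation as a term, so their fold changes contrast the tissue libraries, 2 of each genotype. Macrophages numbered 601 in Control tissue 2 and 148 in Control tissue 3, against 1818, 3110 and 1827 in YAP5SA tissue a, tissue b and enriched. Mo cells numbered 84 and 66 in Control and 134, 280 and 132 in YAP5SA. The median macrophage held 974 UMIs in Control tissue 2, 1010.5 in Control tissue 3 and 1213 to 1830 in the YAP5SA libraries. Control tissue 3 stands apart: its macrophages held 3163 CPM of 6 fibroblast markers and 1862 of 6 endothelial markers, against 109 to 262 and 124 to 307 in the other 4 libraries. Its macrophages also held 125 CPM of 8 monocyte markers, against 1277 to 2153. Of 21696 different barcodes, 10 were found in 2 or more libraries.

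The Mo label was checked against markers. Ccr2, the chemokine receptor of inflammatory monocytes, stood at 1142 and 234 CPM in Control and 1217 to 1376 in YAP5SA. Ly6c2, which marks classical monocytes, was low, at 32.0 and 0 in Control and 17.1 to 84.1 in YAP5SA. In Control tissue 3, 3 of the defining monocyte genes (Ly6c2, Plac8 and Chil3) were at 0. The 8 monocyte markers summed to 430 to 4172 CPM in Mo. The 10 macrophage markers summed to 5158 to 8362 in Mo, against 8952 to 14255 in macrophages. The 10 dendritic cell markers summed to 182 and 247 CPM in Control and 284 to 300 in YAP5SA. In macrophages these dendritic cell markers summed to less, 41.1 and 71.6 in Control and 25.0 to 31.8 in YAP5SA. Flt3, a receptor of dendritic cells, was at 0 in 3 of the 5 libraries and 22.8 at most, and Itgax ran from 10.7 to 132. The cluster thus holds few transcripts of Ly6c2 and of Flt3, while the 10 dendritic cell markers together stood higher than in macrophages. Whether it contains dendritic cells was not tested.

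Class II RNA was concentrated in the Mo cluster. H2-Aa stood at 5178 CPM in Control tissue 2, 5145 in Control tissue 3, 3834 in YAP5SA tissue a, 3739.8 in YAP5SA tissue b and 3922 in YAP5SA enriched. Mo ranked first of the 17 clusters for each of the 7 genes by the mean over libraries with at least 10 cells. For Ciita this rank rests on 9 UMIs in Mo. The clusters were made from the same data, so the ranking is a description. The mean of H2-Aa there was 4364 ± 731 CPM (SD, n = 5 libraries), and the next was Mac4 with 138 ± 243 (SD, n = 5). The order below Mo is not resolved, since Mac4, the epicardial cluster EpiC (104 ± 120, SD, n = 5), Mac1 (102.6 ± 139, SD, n = 5), Mac3 (89.1 ± 133, SD, n = 4) and Mac2 (83.4 ± 161, SD, n = 5) differ by less than their spread. Mo cells were 3.49% of the cells of YAP5SA tissue a and held 94.2% of its H2-Aa UMIs, and 2.88% of the cells of Control tissue 2 with 80.0% of its H2-Aa UMIs. Control tissue 3 differed: Mo held 43.0% of its H2-Aa UMIs, macrophages 7.41%, and the other cells 49.6%.

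**Figure D1:**
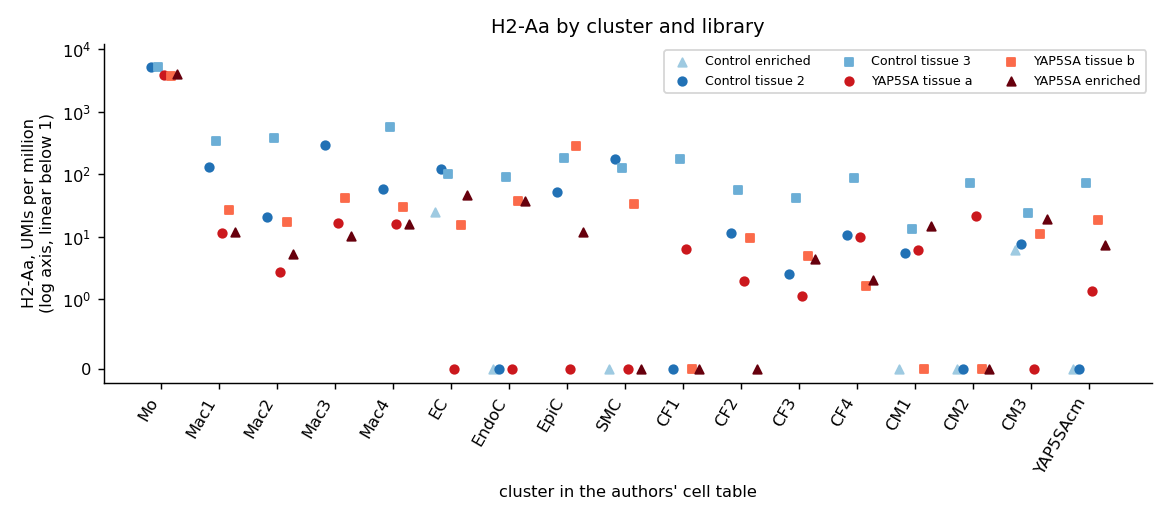
H2-Aa in each of the authors' 17 clusters (x axis) as CPM (y axis, logarithmic, linear below 1); each point is 1 library with at least 10 cells of the cluster. The Mo cluster stands at 3739.8 to 5178 in the 5 libraries that have it, and Control tissue 3 (light blue squares) is above the other libraries in many of the other clusters.

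The genes of the peptide exchange factor were spread more widely than those of the class II chains. Of the H2-DMa UMIs of a library, 25.8% to 41.7% lay in Mo cells and 13.9% to 67.5% in macrophages. For H2-Eb1 these shares were 49.7% to 92.9% and 1.95% to 6.25%. H2-DMa in Mac1 stood at 122 ± 10.96 CPM (SD, n = 5 libraries), against 483 ± 88.7 (SD, n = 5) in Mo. It ran from 108 to 134 in Mac1, from 39.9 to 79.6 in Mac2 and from 51.7 to 185 in Mac3, which overlaps both. The clusters were made from the same data, and how many of all genes differ likewise between Mac1 and Mac2 was not computed. In all macrophages H2-DMa ran from 73.0 to 89.5 CPM over the libraries.

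Within the Mo cluster the class II chain genes had lower values in YAP5SA in every library, without passing the test. H2-Ab1 stood at 4367 and 4077 CPM in Control tissue 2 and 3, and at 3256, 3777 and 3208 in YAP5SA tissue a, tissue b and enriched. H2-Eb1 stood at 2125 and 2188 in Control and 1657, 1631 and 1536 in YAP5SA. For H2-Aa, H2-Ab1 and H2-Eb1 the genotypes do not overlap; 9.58% of the 4676 genes tested were likewise lower in every YAP5SA library. Their fold changes in edgeR's quasi-likelihood test were on the log2 scale -0.64 for H2-Aa (SE 0.50, adjusted p = 0.837), -0.45 for H2-Ab1 (SE 0.49, adjusted p = 0.873) and -0.59 for H2-Eb1 (SE 0.47, adjusted p = 0.843). Of the 6 members that passed the filter on low counts, 0 were called by edgeR at an adjusted p of 0.05, 0 had an unadjusted p under 0.05, and DESeq2 called 0. In all, 0.0% of genes were called lower and 0.0% higher. Fibroblast, endothelial and cardiomyocyte markers had lower values too. Their median log2 fold changes in Mo were -2.77 over the 5 fibroblast markers tested, -2.17 over 3 endothelial and -2.68 over 6 cardiomyocyte markers. edgeR called 0 of them (5 at an unadjusted p under 0.05) and DESeq2 called 3, Dcn, Actc1 and Myl2. Other lists differed, with medians of 1.07 over 5 monocyte and 0.57 over 4 dendritic cell markers. The median was -0.04 over 10 macrophage, -2.19 over 4 resident macrophage and -1.37 over 1 B cell marker. The fibroblast markers summed to 8844 CPM in the Mo cells of Control tissue 3 and to 166 to 1107 in the other 4 libraries, and their part in the class II values was not tested. Without Control tissue 3, H2-Aa in Mo had -0.46 (edgeR adjusted p = 0.566), and without Control tissue 2 it had -0.82 (edgeR adjusted p = 0.0511).

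The exchange factor genes overlapped between the genotypes in Mo cells. H2-DMa stood at 363 and 586 CPM in Control and 552, 467 and 445 in YAP5SA (edgeR log2 fold change -0.12, SE 0.49, adjusted p = 0.967). H2-DMb1 stood at 374 and 247 in Control and 421, 404 and 245 in YAP5SA (edgeR log2 fold change 0.25, SE 0.42, adjusted p = 0.906). Both signs turn under other settings. The median log2 fold change of the 6 members tested was -0.39, beside 0.00 over all genes tested.

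**Figure D2:**
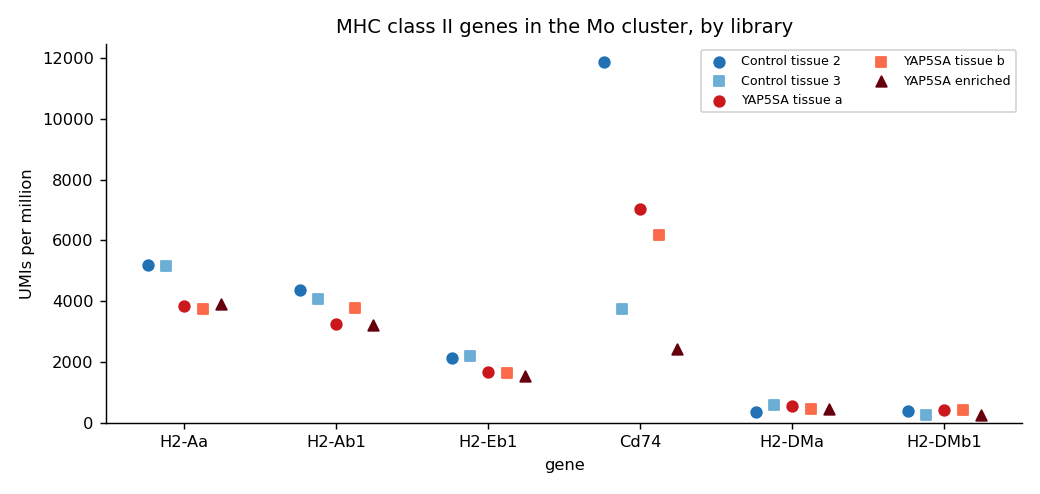
The 6 members that passed the filter (x axis) in the Mo cluster as CPM (y axis, from 0), 1 point per library. H2-Aa, H2-Ab1 and H2-Eb1 are higher in both Control libraries (blue) than in the 3 YAP5SA libraries (red), while Cd74 splits by the way genes were annotated, with Control tissue 3 and YAP5SA enriched lowest.

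Cd74 needs its annotation beside it. In Control tissue 2 and in YAP5SA tissue a and b, 96.8% to 99.3% of the Cd74 UMIs of Mo cells were counted under a name that joins Cd74 and Mir5107, a microRNA gene of which 12 of 88 bases lie in an exon of Cd74 in GENCODE vM21. In Control tissue 3 and YAP5SA enriched no joined names were used and 0.0% were. Under joined names Cd74 (both names summed) stood at 11883 CPM in Control tissue 2 and at 7042 and 6164 in YAP5SA tissue a and b. Without joined names it stood at 3738 in Control tissue 3 and 2438 in YAP5SA enriched. Per UMI of H2-Aa the first 3 libraries held 2.29, 1.84 and 1.65 UMIs of Cd74 and the other 2 held 0.727 and 0.622. Both kinds of annotation had the lower value in YAP5SA, but across them the values cannot be set side by side. Without joined names the 2 libraries also differ in preparation, tissue for Control and enriched for YAP5SA. In the Mo cluster Cd74 had an edgeR log2 fold change of -0.34 (SE 0.59, adjusted p = 0.908), and with a term for annotation in place of preparation -0.94 (SE 0.35, adjusted p = 0.425).

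The Mo cells of the 2 Control libraries fell into different earlier clusters. An earlier clustering in the authors' cell table divides the 84 Mo cells of Control tissue 2 into 37 of a cluster Mo1, 40 of a cluster Mφ5 and a few others. In Control tissue 3, 10 cells were in Mo1, 54 in Mφ6 and 0 in Mφ5, while Mφ6 held 0 Mo cells of Control tissue 2. A difference between kinds of cells cannot be told apart here from one between libraries. Mo1 held 100 of 134 Mo cells in YAP5SA tissue a, 202 of 280 in tissue b and 99 of 132 in YAP5SA enriched. Within Mo1, H2-Aa stood at 8803 and 7632 CPM in Control, the second from only 78 UMIs, and at 4926, 4842 and 5023 in YAP5SA. The earlier cluster Mφ5 of Control tissue 2 held 2464 and Mφ6 of Control tissue 3 held 4870. In a cluster Mo2, found in YAP5SA, H2-Aa was lower, at 607, 998 and 660. The fit within Mo1 gave H2-Aa a log2 fold change of -0.42 (SE 0.78, edgeR adjusted p = 0.998).

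In macrophages the class II chain genes were far lower than in Mo cells, and lower in YAP5SA than in Control. H2-Aa stood at 94.4 CPM in Control tissue 2 and 406 in Control tissue 3, against 11.4, 26.9 and 12.1 in YAP5SA tissue a, tissue b and enriched. H2-Ab1 stood at 51.7 and 280.5 in Control and 19.1, 40.9 and 27.98 in YAP5SA. H2-Eb1 stood at 16.7 and 71.6 in Control and 3.35, 8.78 and 2.27 in YAP5SA. The genotypes do not overlap for these 3 genes, yet the 2 Control libraries lie several times apart in each. The macrophages compared also fall into different earlier clusters: Mφ5 held 337 of the 601 in Control tissue 2 and Mφ6 107 of the 148 in Control tissue 3, while the YAP5SA libraries had 1, 2 and 4 cells in Mφ5 and 0 in Mφ6. Outside both, H2-Aa stood at 97.8 CPM (264 cells) and 552 (41 cells) in Control and at 11.4, 27.0 and 12.1 in YAP5SA, so it did not overlap there. H2-Ab1 outside both stood at 39.1 and 221 in Control and 19.1, 40.9 and 28.04 in YAP5SA, which overlap. These levels outside Mφ5 and Mφ6 were chosen after seeing the data and carry no test.

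Values of the invariant chain did not overlap between the genotypes and those of the exchange factor did. Cd74 stood at 546 and 418 CPM in Control and at 215, 236 and 83.9 in YAP5SA, so it does not overlap either, also within each kind of annotation. H2-DMa stood at 83.7 and 89.5 in Control and 84.0, 84.9 and 73.0 in YAP5SA. H2-DMb1 stood at 25.9 and 11.9 in Control, the second from 2 UMIs, and 23.8, 35.1 and 21.9 in YAP5SA. Both exchange factor genes overlap between the genotypes. Thus 4 of the 6 members tested were lower in every YAP5SA library, and 11.6% of the 12852 genes tested were. This count takes Cd74 across both kinds of annotation, whose values cannot be set side by side, and within each kind Cd74 was lower too.

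None of these differences passed in the fit over all macrophages with preparation as a term. That fit mixes both kinds of annotation, which bears on Cd74. With the annotation term in its place Cd74 had -1.80 and passed (edgeR adjusted p = 0.0325), beside 0.212% of genes called lower and 0.457% higher. In the libraries with joined names alone, with 1 Control library, Cd74 had -1.35. With preparation as the term, edgeR called 0 of the 6 members tested, beside 0.109% of genes called lower and 0.49% called higher. In that fit 3, Cd74, H2-Aa and H2-Eb1, had an unadjusted p under 0.05. H2-Aa had a log2 fold change of -3.67 (SE 1.06, adjusted p = 0.457), H2-Eb1 of -2.51 (SE 0.81, adjusted p = 0.319), H2-Ab1 of -2.35 (SE 1.14, adjusted p = 0.678) and Cd74 of -1.22 (SE 0.38, adjusted p = 0.241). H2-DMa had -0.13 (SE 0.32, adjusted p = 0.94) and H2-DMb1 0.34 (SE 0.45, adjusted p = 0.885). The median over the 6 was -1.78, beside 0.06 over all genes tested. DESeq2 called 1 member, H2-Aa, at -3.88 (DESeq2 adjusted p = 0.00387), beside 0.652% of genes that DESeq2 called lower and 0.32% higher.

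**Figure D3:**
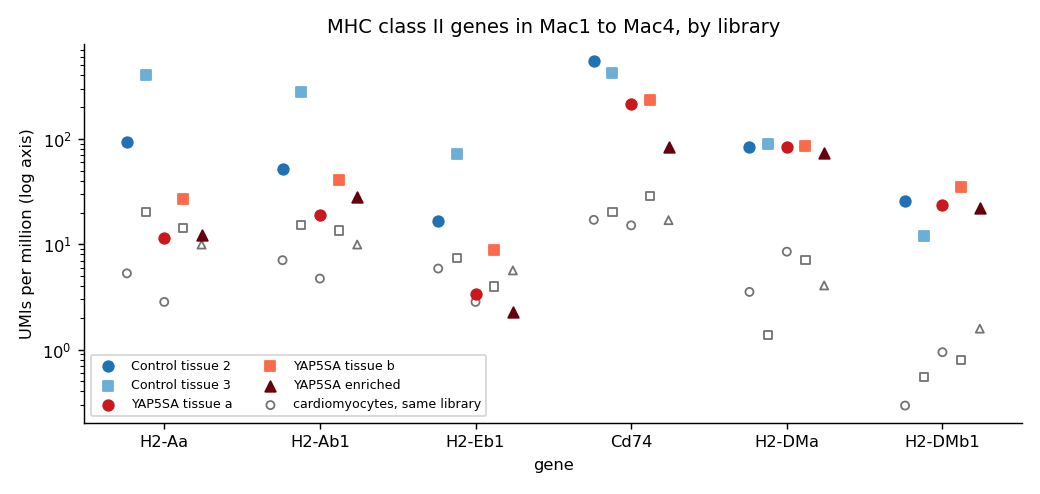
The same 6 members in the clusters Mac1 to Mac4 together, as CPM on a logarithmic axis: filled points are the macrophages of each library and open grey points the cardiomyocytes of the same library. H2-Aa, H2-Ab1, H2-Eb1 and Cd74 are higher in both Control libraries than in YAP5SA, and the points of Cd74 mix both kinds of annotation. H2-DMa sits between 73.0 and 89.5 in every library, and H2-Eb1 in YAP5SA macrophages (2.27 to 8.78) is near the level in cardiomyocytes (2.83 to 5.64).

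Each library was then left out in turn, which also changed how many genes of all were called. Without Control tissue 3, H2-Aa in macrophages had a log2 fold change of -2.29 (edgeR adjusted p = 0.209) and Cd74, at -1.34, passed (edgeR adjusted p = 0.00078), beside 1.29% of genes called lower and 2.11% higher. Without Control tissue 2, H2-Aa (-4.54, edgeR adjusted p = 0.0451), H2-Eb1 (-3.66, adjusted p = 0.00138) and Cd74 (-1.09, adjusted p = 0.0034) passed, beside 3.96% of genes called lower and 4.82% higher. With 1 Control library left, its spread is taken to be like that of the other libraries. Without YAP5SA tissue a, H2-Aa passed (-3.36, edgeR adjusted p = 0.00842), beside 0.607% of genes lower. Without YAP5SA tissue b, H2-Aa (-4.66, edgeR adjusted p = 0.000127) and H2-Ab1 (-3.29, adjusted p = 0.00804) passed, beside 0.273% of genes lower. Without YAP5SA enriched 0 of 10800 genes passed in edgeR (1072 at an unadjusted p under 0.05), against 77 of 12852 with it. H2-Aa then had -3.78 (edgeR adjusted p = 0.28), though the library left out has no Control library of its preparation. H2-Aa stayed negative under all 17 other settings, from -4.66 to -2.29. Cells without a UMI of the dendritic, B, T or NK cell markers gave H2-Aa -3.58 (edgeR adjusted p = 0.541). These markers are sparse, so a cell of these types can show no UMI of them, and their part was not tested.

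Levels in other cells of the same libraries bear on these values, since free RNA reaches every droplet. In cardiomyocytes H2-Aa stood at 5.29 and 20.2 CPM in Control tissue 2 and 3, and at 2.83, 14.3 and 9.93 in YAP5SA tissue a, tissue b and enriched. In YAP5SA enriched, H2-Aa in macrophages (12.1) and in cardiomyocytes (9.93) were close, while H2-Ab1 in YAP5SA macrophages (19.1 to 40.9) was above cardiomyocytes (4.72 to 13.5). Over all cells outside Mo and the macrophages, H2-Aa stood at 44.1 CPM in Control tissue 3, against 9.76 in Control tissue 2 and 3.16 to 11.8 in YAP5SA. The part of free RNA in the macrophage values was not tested. Fibroblast, endothelial and cardiomyocyte markers moved the same way in macrophages. The median log2 fold change was -2.73 over 6 fibroblast markers, -2.41 over 6 endothelial and -2.35 over 6 cardiomyocyte markers, of which 0, 0 and 1 passed in edgeR. The median was 0.74 over 8 monocyte, 0.02 over 10 macrophage and -0.88 over 6 resident macrophage markers. Of the last list 1 passed in edgeR, and DESeq2 called 1, Igf1. Medians were -0.59 over 5 dendritic, -1.26 over 3 B cell, -1.90 over 4 T or NK cell and -1.06 over 2 neutrophil markers. The fibroblast markers summed to 262 and 3163 CPM in Control and 109 to 203 in YAP5SA. Their part in the class II values was not tested either. Cd74 was well above that level in every library, at 83.9 to 546 in macrophages and 15.1 to 28.6 in cardiomyocytes.

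Cluster by cluster the class II genes gave calls in each macrophage cluster. In Mac1, H2-Aa stood at 128 and 335 CPM in Control and 11.6, 27.1 and 11.7 in YAP5SA, and it fell by 3.15 on the log2 scale (SE 0.47, edgeR adjusted p = 2.8e-08). It was the 1 of 6 members called there, beside 0.785% of genes called lower and 0.701% higher. In Mac2, Cd74 stood at 256 and 610.2 in Control and 116, 143 and 36.4 in YAP5SA, and it fell by 1.86 (SE 0.42, edgeR adjusted p = 0.0276). It was the 1 of 6 called, beside 0.309% of genes called lower and 0.435% higher. H2-Aa in Mac2 stood at 20.8 (3 UMIs) and 371 in Control, and its -3.93 did not pass (SE 2.03, edgeR adjusted p = 0.783).

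The clusters Mac3 and Mac4 gave calls of H2-Aa as well. In Mac3, Control tissue 3 had 6 cells and did not enter, so Control is 1 library, whose spread is taken to be like that of the others. There Cd74 stood at 886 in Control and 273, 215 and 62.0 in YAP5SA and fell by 1.88 (SE 0.34, edgeR adjusted p = 2.36e-05), and H2-Aa fell from 288 to 16.4, 41.5 and 10.3, by 3.09 on the log2 scale (SE 0.72, edgeR adjusted p = 0.0024). They were 2 of 3 members tested, beside 0.871% of genes called lower and 0.707% higher. In Mac4, H2-Aa stood at 58.5 and 571 in Control and 15.6, 30.2 and 15.8 in YAP5SA and fell by 2.89 (SE 0.55, edgeR adjusted p = 0.00093). It was the 1 of 6 called, beside 0.554% of genes called lower and 0.858% higher.

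These calls rest on the model, and the fits of Cd74 in Mac2 and Mac3 mix both kinds of annotation. Without the term for preparation 0 members were called in Mac1, Mac2 and Mac4, where H2-Aa in Mac1 had an edgeR adjusted p of 0.0534, and 1 in Mac3, where H2-Aa stayed at an adjusted p of 0.0488. Leaving out any 1 YAP5SA library ended the calls in Mac1 and Mac4, where the adjusted p of H2-Aa rose to at least 0.0626. YAP5SA enriched has no Control library of its preparation in these fits. Yet without it edgeR called 0 genes of all in Mac1, 0 in Mac2 and 14 in Mac4, against 142, 65 and 153 with it. Without Control tissue 3, H2-Aa in Mac4 went to -1.27 (edgeR adjusted p = 0.269) and Cd74 there passed (-0.97, adjusted p = 0.0114). In Mac2, Cd74 was not called without Control tissue 3 (-0.98, edgeR adjusted p = 0.0853) or without any 1 of the YAP5SA libraries.

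**Figure D4:**
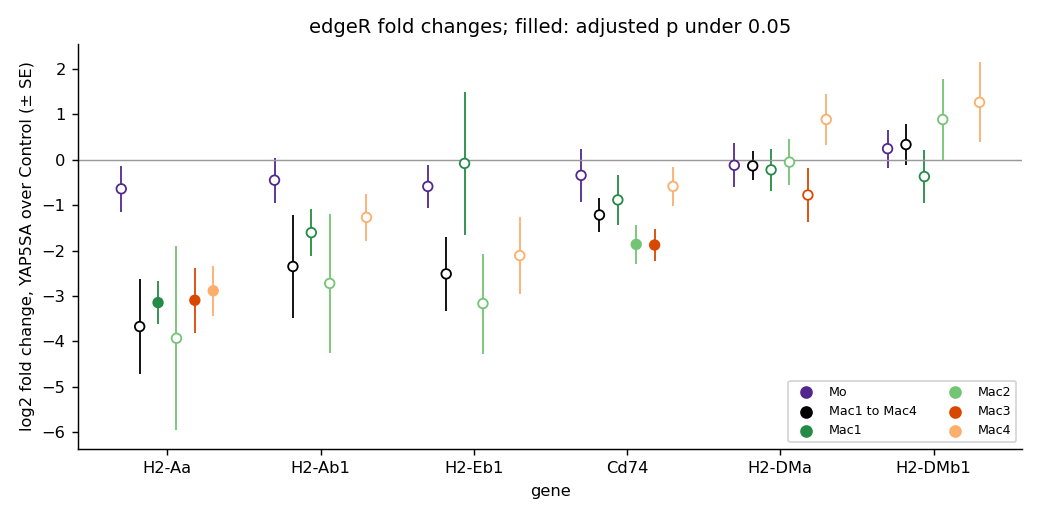
edgeR log2 fold changes, YAP5SA over Control, with 1 standard error, for each gene (x axis) in Mo, in all macrophages and in each macrophage cluster; filled points passed an adjusted p of 0.05. H2-Aa lies between -3.93 and -2.89 in every macrophage fit and at -0.64 in Mo, and H2-DMa and H2-DMb1 lie on both sides of 0.

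The difference between the cell classes was tested with an interaction term. The effect of the genotype on H2-Aa was higher, that is less negative, in Mo than in macrophages by 3.04 on the log2 scale (SE 0.97, edgeR adjusted p = 0.785). For Cd74 the difference was 0.96 (SE 0.31, edgeR adjusted p = 0.598). 0 of 6 members passed (2, Cd74 and H2-Aa, at an unadjusted p under 0.05), beside 0.237% of genes called higher and 0.163% lower. With library totals alone Cd74 passed, at 0.84 (edgeR adjusted p = 0.0059). The lower class II RNA is thus not shown to differ between macrophages and Mo cells.

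Shares of cells with a UMI were compared after thinning each cell to 1000 UMIs, which left out 320 and 69 shallower macrophages in Control and 440, 532 and 565 in YAP5SA. H2-Aa was seen in 5.34% of macrophages of Control tissue 2 (exact 95% interval 3.02% to 8.65%) and 24.1% of Control tissue 3 (15.1% to 35.0%). In YAP5SA it was seen in 0.943% (0.503% to 1.61%), 2.56% (1.99% to 3.25%) and 0.872% (0.436% to 1.55%) of tissue a, tissue b and enriched. Cardiomyocytes at the same depth, which should lack the gene, gave 0.191% to 2.45%, and in each YAP5SA library the intervals of macrophages and cardiomyocytes overlap, so the shares were not resolved from those of cardiomyocytes at this depth. Unthinned, H2-Aa was seen in 5.99% and 21.6% of Control and 1.49%, 4.24% and 1.59% of YAP5SA macrophages, and in 0.281% to 3.55% of cardiomyocytes, whose median depth was 1876 to 4595 UMIs. The intervals cover counting error alone.

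Cd74 was seen in 29.5% and 26.6% of Control macrophages and in 16.0%, 17.1% and 7.61% of YAP5SA macrophages at 1000 UMIs. Cardiomyocytes gave 0.381% to 2.45%, so Cd74 was above the cardiomyocyte level in macrophages of every library. H2-DMa was seen in 6.76% and 7.59% of Control and 7.47%, 7.76% and 6.74% of YAP5SA macrophages, against at most 1.39% of cardiomyocytes. These values of H2-DMa differ by 0.144 percentage points between the genotype means.

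In Mo cells H2-Aa was seen in 84.8% and 100% of Control and 80.7%, 74.8% and 76.7% of YAP5SA cells at 1000 UMIs. H2-Eb1 was seen in 69.6% and 86.1% of Control and 62.7%, 53.3% and 49.3% of YAP5SA cells. Both genes were lower in every YAP5SA library by this measure too. It uses the same UMIs as the CPM, and how many of all genes do likewise by this measure was not computed. With genotype permuted within preparation there are 6 arrangements, and the smallest two-sided p is 0.333. H2-Aa reached that smallest exact permutation p in macrophages (difference of means -13.2 points) and in Mo (-15.0 points), and over the 14 comparisons of 7 genes and 2 classes the lowest Benjamini-Hochberg adjusted p was 0.467. The design cannot reach 0.05.

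**Figure D5:**
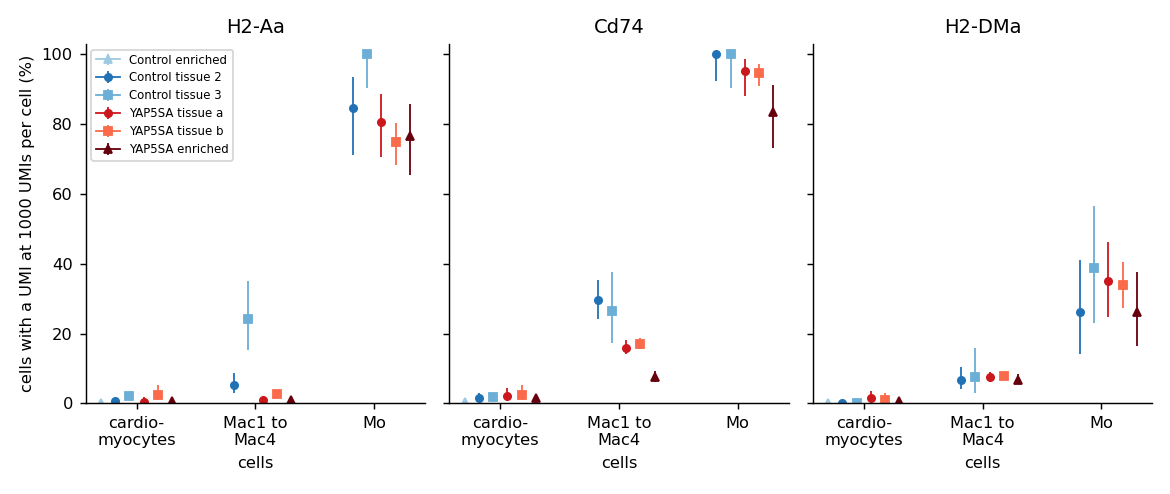
Cells with at least 1 UMI at 1000 UMIs per cell (y axis, percent) of H2-Aa, Cd74 and H2-DMa in cardiomyocytes, macrophages and Mo; each point is 1 library and bars are exact 95% binomial intervals. H2-Aa in YAP5SA macrophages (0.872% to 2.56%) overlaps cardiomyocytes (0.347% to 2.45%), while Cd74 and H2-DMa are above it.

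The genes occurred together in single Mo cells and rarely in single macrophages. Unthinned, 3 or more of the 7 members were seen in 84.5% and 100% of Control Mo cells and 87.3%, 87.9% and 80.3% of YAP5SA Mo cells. In macrophages this was so for 2.83% and 13.5% of Control cells and 0.990%, 3.57% and 0.602% of YAP5SA cells. The median Mo cell held 17 and 19 member UMIs in the Control libraries and 12 to 19 in YAP5SA, and the median macrophage held 0 in every library. Macrophages with 5 or more member UMIs numbered 21 in Control tissue 2 and 22 in Control tissue 3. The larger YAP5SA libraries held 28, 110 and 8 such cells. These few cells held 36.1% and 71.5% of the member UMIs of Control macrophages and 17.6%, 27.3% and 9.4% of those of YAP5SA macrophages. Of the 22 in Control tissue 3, 14 were in Mac2, and of the 21 in Control tissue 2, 12 were in Mac1.

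Ciita, the coactivator, was near the limit of detection. The whole table held 14 UMIs of it in 14 cells, of which 9 were Mo cells and 1 was a macrophage. Mo cells held 2 and 0 UMIs in Control and 2, 2 and 3 in YAP5SA. A count of 0 in the Mo cells of Control tissue 3 allows up to 39.1 CPM, above the 21.4 seen in Control tissue 2. No difference was detectable at this depth, and Ciita did not pass the filter of any fit.

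Macrophages that the authors scored as in S or G2M phase were compared with those scored as G1, within libraries. H2-DMa stood at 90.7, 70.4, 84.6, 97.4 and 111 CPM in G1 cells of Control tissue 2, Control tissue 3, YAP5SA tissue a, tissue b and enriched. In S or G2M cells it stood at 79.3, 109, 83.7, 79.8 and 60.7. H2-DMa fell by 0.35 on the log2 scale (SE 0.11, edgeR adjusted p = 0.00846), the 1 of 6 members called, beside 14.6% of genes called lower and 14.4% higher. S or G2M cells were also deeper in 4 of the 5 libraries, and the part of depth was not tested. The value in Control tissue 3 moved the other way. The call was lost without YAP5SA tissue b (-0.38, edgeR adjusted p = 0.0748) or YAP5SA enriched (-0.22, edgeR adjusted p = 0.206). H2-Aa had 0.11 (SE 0.18, edgeR adjusted p = 0.712) and Cd74 0.02 (SE 0.08, edgeR adjusted p = 0.888).

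Other genes of the pathway were taken from lists that cover its steps, and 0 of them passed between the genotypes in macrophages or in Mo cells with edgeR. In macrophages 4 had an unadjusted p under 0.05 (Nfyc, Cxcl9, Ctsh and Cd63) and DESeq2 called 0, and in Mo cells 2 did (H2-DMb2 and Cd63) and DESeq2 called 1, Cd63 (-2.17, DESeq2 adjusted p = 0.0461). Of 10 class II transcription factors 10 were tested in macrophages, and the 3 with the smallest p were Nfyc (1.33, adjusted p = 0.504), a subunit of the Y box factor NF-Y, Creb1 (-0.67, adjusted p = 0.572) and Rfx5 (-1.17, adjusted p = 0.702), a subunit of the X box factor RFX. The list's median log2 fold change was -0.13. Of 12 interferon gamma genes 10 were tested, with a median of -0.05. Cxcl9, a chemokine induced by interferon gamma, was at 0 in both Control libraries, which allows up to 4.57 and 17.9 CPM, and at 3.01, 7.57 and 3.78 in YAP5SA (edgeR adjusted p = 0.491). What the 0 of Control tissue 3 allows is above all 3 of these values. Gbp3, an interferon-induced GTPase, had 0.59 (adjusted p = 0.728) and Jak1, a kinase of the receptor, -0.27 (adjusted p = 0.877).

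Of 12 endosomal antigen processing genes 11 were tested in macrophages and 0 passed, with a median of -0.08. Cd63, a tetraspanin of late endosomes, stood at 1772 and 651 CPM in Control macrophages and 546, 547 and 627 in YAP5SA; its log2 fold change of -1.25 (SE 0.47) had an edgeR adjusted p of 0.399. Ctsh, a lysosomal protease, stood at 222 and 185 in Control and 107, 121 and 92.2 in YAP5SA (-0.96, SE 0.34, edgeR adjusted p = 0.331), and Ctsb had -0.86 (edgeR adjusted p = 0.701). In the libraries with joined names alone, which leave 1 Control library, the log2 fold changes were -1.77 for Cd63, -1.03 for Ctsh and -1.51 for Ctsb. In Mac3, 4 of the 11 passed, all lower and from 1 Control library, beside 0.871% of genes called lower, among them Cd63 (-1.51, edgeR adjusted p = 0.000224) and Ctsb (-1.30, edgeR adjusted p = 0.00047). Between phases, 10 of 11 were lower in S or G2M cells and 0 higher, beside 14.6% of genes called lower and 14.4% higher, among them Ctsb (-0.52, edgeR adjusted p = 1.02e-22) and Ctsh (-0.45, edgeR adjusted p = 2.24e-05). Marker lists were called lower there too: 6 of 6 resident macrophage, 6 of 6 monocyte, 6 of 6 cardiomyocyte, 7 of 10 macrophage and 4 of 6 fibroblast markers. Of 5 endothelial markers and 1 B cell marker 0 were, and 1 of 10 macrophage and 1 of 2 dendritic cell markers were called higher. The class II chain genes did not pass in that comparison.

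Of 6 costimulation genes 5 were tested in macrophages, with a median of -0.01; Cd40 had -0.95 (edgeR adjusted p = 0.728), Icosl 0.47 (adjusted p = 0.884) and Cd80 0.64 (adjusted p = 0.923). All 14 MHC class I genes were tested, with a median of 0.12. Psmb8, a subunit of the immunoproteasome, had 0.67 (edgeR adjusted p = 0.7), Psmb9 0.39 (adjusted p = 0.803) and H2-Q4 0.42 (adjusted p = 0.847). H2-DMb2, a second gene for the beta chain of H2-M beside H2-DMb1, stood in Mo cells at 42.7 and 39.1 CPM in Control and 99.9, 126 and 74.2 in YAP5SA (1.31, SE 0.58, edgeR adjusted p = 0.643). In macrophages it stood at 1.52 (1 UMI) and 0 in Control and 7.69, 7.11 and 4.91 in YAP5SA (edgeR adjusted p = 0.537). H2-DMb1 and H2-DMb2 are close copies, and how the authors' counting divided reads between them is not given in the sources used here.

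The genes most like the members were sought over 24 sums of 1 library and 1 cluster each (Mac1 to Mac4 and Mo), among 3445 genes with a mean of at least 50 CPM. The measure was the Pearson correlation of log2 (CPM + 1) with the summed members. The 10 highest were Plbd1 (r = 0.90), Clec7a (0.83), Il1b (0.80), Lpl (0.79), Lsp1 (0.77), Ccl17 (0.76), Rnd3 (0.73), Tmem176a (0.73), Ctsh (0.72) and Wls (0.70). The 24 points share libraries and depth, and 5 of them are Mo, so part of each r is the gap between Mo and the macrophages. Over the 19 macrophage sums alone Plbd1 had 0.78, Rnd3 0.77 and Ccl17 -0.29. Plbd1 stood at 234 to 352 CPM in Mo and 0 to 89.3 in macrophage clusters, and Ccl17, a chemokine, at 26.1 to 793 in Mo.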

How the data were processed

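Drop-seq libraries of adult mouse hearts, 3 Control and 3 YAP5SA, were processed by the authors with Picard, STAR and Seurat 2.3.4, per the submitters' processing notes; the genome build and annotation are not given in the sources used here. The deposited table holds UMI counts per gene and cell, in whole numbers, and the deposited cell table gives clusters, earlier clusters and phases. Library totals ran from 3382656 to 13483791 UMIs, which limits the precision of each value. Names joined by hyphens for overlapping genes were merged (809 names), and 1216 features that only 1 way of annotation counts were left out of the tests. Counts were summed per library and class or cluster (at least 10 cells) and tested with the robust quasi-likelihood F test of edgeR 4.0.16 (R 4.3.3), after TMM scaling and filterByExpr, with preparation and genotype as terms, with Benjamini-Hochberg adjustment over all genes tested at 0.05. Since Control enriched has no such cells, YAP5SA enriched adds nothing to the fold changes of these fits. CPM are shares of the UMIs of those cells, with no further scaling. Tested on simulated counts of the macrophages (12852 genes), the fit recovered 0 of 100 genes changed 2-fold and 38 of 100 changed 4-fold, with 1 false call. Intervals are Clopper-Pearson at 95%, and a count of 0 allows 3 counts. Doublets were not removed. Shares were compared by an exact two-sided permutation test within preparation.

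Named genes were the members, from every pathway list the 3 genes of smallest p among macrophages and the 10 most alike genes; values of H2-DMb2 in Mo and of list genes in Mac3 and by phase were chosen after they were seen. The members and lists were chosen with earlier results of these data known. Alternatives were RLE, library totals alone, DESeq2 1.42.0, no filter, no covariate, tissue libraries alone, at least 30 cells, equal numbers of cells, equal weight of clusters, cells without dendritic, B, T or NK cell markers and each library left out. An annotation term, the libraries with joined names alone and the earlier cluster Mo1 alone were chosen after seeing the data. YAP5SA tissue a and b are the libraries that the cell table numbers 1 and 2; the titles number them 2 and 3. The other marker lists, for neutrophils (0 to 18.3 CPM in macrophages), T or NK cells (5.67 to 71.6), B cells (49.9 to 185), resident macrophages (899 to 2381), macrophages (8952 to 14255) and cardiomyocytes (666 to 7198), were used as checks.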

Additional observations from a re-analysis of the deposited data

How the results depend on the processing

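In macrophages 0 members were called in the fit reported. DESeq2 called 1, no filter on low counts 2, an annotation term 1 and the libraries with joined names 1, and leaving out each library gave 0 to 3. The difference between macrophages and Mo cells gave 1 call with library totals alone and 0 to 3 with each library left out. Without the term for preparation 0 members were called in Mac1, Mac2 and Mac4 and 1 in Mac3, and library totals gave 0 in Mac4. Leaving out each library gave 0 to 2 in Mac1, 0 to 4 in Mac2, 0 to 1 in Mac4 and 0 to 1 between phases. In Mo cells 0 members were called under every alternative run. The causes were not tested. No paired analysis was possible because the YAP5SA tissue columns carry other numbers than the titles.

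On the log2 scale H2-DMa turned to 0.19 in macrophages with equal weight of clusters, to 0.062 in Mac2 with library totals, and in Mo to 0.12 with library totals, 0.16 without the filter, 0.20 in cells without other markers and 0.50 in the libraries with joined names. H2-DMb1 in Mo turned to -0.0027 without the preparation term, -0.094 with the annotation term and -0.12 in Mo1 alone, and between phases to 0.015 with library totals. With equal weight of clusters Jak1 turned to 0.32 and Psmb9 to -0.041. The difference in share of H2-DMa turned to -1.46 points in macrophages at 500 UMIs, and in Mo to 5.14 unthinned and 1.69 at 500 UMIs; that of Ciita in Mo turned to 0.303 and 0.029.
With each library left out in turn, log2 fold changes that crossed 0 ran in Mo from -0.59 to 0.47 (H2-DMa) and -0.86 to 0.44 (Cd74, positive without Control tissue 2). In Mac1 they ran from -0.70 to 0.61 (H2-DMb1) and -1.38 to 0.11 (Cd74), in Mac2 from -0.63 to 0.35 (H2-DMa), in Mac4 from -0.97 to 0.34 (Cd74). Between phases they ran from -0.032 to 0.28 (H2-Aa), -0.18 to 0.023 (H2-DMb1) and -0.019 to 0.080 (Cd74). In macrophages they ran from -1.51 to 0.28 (Ctsb), -1.40 to 8.20 (Cd40) and -0.67 to 1.11 (Icosl). Differences in share that crossed 0 ran from -0.272 to 0.561 points for H2-DMa in macrophages, and in Mo from -7.30 to 5.51 (H2-DMa), -0.125 to 6.39 (H2-DMb1) and -3.49 to 0.858 (Ciita).

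The annotation term, the libraries with joined names and Mo1 alone were chosen after seeing the data. Depth limits Ciita, and H2-Eb1 in YAP5SA macrophages, which rests on 6 to 58 UMIs per library.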
